A study of Mus musculus with 6 samples.

Results

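The 10 genes described here mark T cells and regulatory T cells (Tregs) in ischemic muscle. They are the CD3 chains *Cd3d*, *Cd3e* and *Cd3g*, the coreceptors *Cd4* and *Cd8a*, and the Treg genes *Il2ra*, *Ctla4*, *Foxp3*, *Icos* and *Ikzf2*. They were taken by symbol from the 18089 genes of the deposited table, after the estimated counts of each gene's transcripts had been added up by Entrez gene number (12500, 12501, 12502, 12504, 12525, 16184, 12477, 20371, 54167 and 22779 in the order above). Of the 10 genes, 9 had over 3 counts in every library, and *Ctla4* did not. The libraries were RNA-seq libraries of ischemic gastrocnemius from 3 *Gpr174*-/Y mice, males that lack the X-linked receptor GPR174, and 3 wild-type (WT) littermate males, all C57BL/6 and aged 8 to 10 weeks. In every mouse the femoral artery had been ligated and excised (hindlimb ischemia, HLI), and muscle was taken 7 days later. No group without ischemia is analysed here, and each library was labelled as a separate replicate of its genotype.

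T cells recognize antigen with a receptor that signals through the CD3 chains, and the coreceptors CD4 and CD8 divide them into helper and cytotoxic lineages. Tregs are CD4+ cells defined by the transcription factor FOXP3. They carry the high-affinity IL-2 receptor chain CD25 (*Il2ra*), the inhibitory receptor CTLA4 and the costimulatory receptor ICOS, and many of them express the Ikaros family factor Helios (*Ikzf2*). In injured skeletal muscle, Tregs gather within days and are known for restraining inflammation and aiding repair.

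Libraries held between 18417111 and 19394504 counts, and 3 counts, the smallest number taken as detectable, corresponded to 0.155 to 0.163 CPM (counts scaled to the library's total), which covers counting error only. Below, values of the 3 libraries of a group are listed in the order of their replicate numbers, 1 to 3. The disrupted gene, *Gpr174*, was counted 8, 2 and 5 times in WT libraries but 1, 0 and 0 times in *Gpr174*-/Y libraries, where it was at least 2.10-fold lower against a floor of 3 counts per library. Levels below are CPM after TMM scaling, which equalizes libraries on their bulk of genes, and log2 fold changes are *Gpr174*-/Y minus WT from edgeR's quasi-likelihood test with Benjamini-Hochberg adjustment over all genes tested. Of 14395 genes that passed edgeR's filter on low counts, 27.0% passed an adjusted p of 0.05 as higher in *Gpr174*-/Y muscles and 27.6% as lower, with a median log2 fold change of 0.00. The 3 CD3 chains were detected in all libraries, so the label of T cells was met by its defining genes, though at low levels. The WT libraries differed among themselves more than the *Gpr174*-/Y libraries did in leukocyte RNA. *Ptprc*, the leukocyte antigen CD45, stood at 39.1, 49.0 and 63.9 CPM in WT libraries against 79.4, 81.9 and 95.8 CPM in *Gpr174*-/Y libraries.

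*Cd3g* and *Cd3d* lie next to each other and are read in opposite directions, with *Cd3e* nearby, and *Foxp3* has 2 RefSeq start sites on the X chromosome. Their promoter windows, from 250 bases before to 50 bases after the start, are shown because these genes define the cells in question. RefSeq sequences on GRCm38.p6 were matched for 7 of the 10 genes, in 8 windows, and *Cd4*, *Icos* and *Ikzf2* had no entry. Capitals mark any of 3 motifs on either strand: an ETS core (AGGAAG), an E box (CAGNTG) and a RUNX core (TGTGGT).
Cd3g, chr9:44980382-44980681, minus strand: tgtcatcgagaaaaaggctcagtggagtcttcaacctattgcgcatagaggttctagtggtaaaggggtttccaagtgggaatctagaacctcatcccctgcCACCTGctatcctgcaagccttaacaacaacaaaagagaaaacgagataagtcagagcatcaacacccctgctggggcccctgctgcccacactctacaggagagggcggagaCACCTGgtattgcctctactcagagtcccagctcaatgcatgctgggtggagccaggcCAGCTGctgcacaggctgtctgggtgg
Cd3d, chr9:44981536-44981835, plus strand: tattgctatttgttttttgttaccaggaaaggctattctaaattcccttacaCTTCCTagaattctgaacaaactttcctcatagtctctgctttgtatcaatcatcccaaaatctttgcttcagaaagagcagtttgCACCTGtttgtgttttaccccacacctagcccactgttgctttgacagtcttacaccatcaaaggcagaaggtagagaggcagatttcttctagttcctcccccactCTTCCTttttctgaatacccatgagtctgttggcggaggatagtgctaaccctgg
Cd3e, chr9:45009562-45009861, minus strand: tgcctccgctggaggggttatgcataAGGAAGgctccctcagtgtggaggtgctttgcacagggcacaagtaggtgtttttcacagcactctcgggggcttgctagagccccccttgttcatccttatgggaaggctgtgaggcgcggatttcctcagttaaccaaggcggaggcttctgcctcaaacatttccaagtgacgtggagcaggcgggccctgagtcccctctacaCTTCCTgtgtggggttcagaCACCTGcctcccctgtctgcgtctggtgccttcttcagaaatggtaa
Foxp3, chrX:7579426-7579725, plus strand: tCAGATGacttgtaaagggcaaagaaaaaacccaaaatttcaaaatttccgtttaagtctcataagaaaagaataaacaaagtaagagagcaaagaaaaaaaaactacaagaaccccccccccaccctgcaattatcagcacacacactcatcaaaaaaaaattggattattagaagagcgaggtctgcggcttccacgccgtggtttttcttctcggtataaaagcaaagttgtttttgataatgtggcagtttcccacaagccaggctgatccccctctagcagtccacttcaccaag
Foxp3, chrX:7580233-7580532, plus strand: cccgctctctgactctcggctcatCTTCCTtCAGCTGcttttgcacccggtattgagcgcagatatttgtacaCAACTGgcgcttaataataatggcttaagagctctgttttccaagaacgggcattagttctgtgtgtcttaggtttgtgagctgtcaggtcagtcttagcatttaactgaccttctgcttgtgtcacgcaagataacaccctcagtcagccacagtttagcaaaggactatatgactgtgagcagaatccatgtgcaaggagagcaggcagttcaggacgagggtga
The ETS letters were found in 5 of the 8 windows, including *Cd3d*, *Cd3e* and the downstream *Foxp3* window, against 35.4% of all 32851 mouse promoter windows of this length. The E box letters were in 7 of the 8, against 51.4% of all windows, and only the *Il2ra* window lacked them. The RUNX letters were in 0 of the 8 windows and in 16.8% of all windows. In none of the 8 windows did motifs overlap. A match of letters is a description of the window, and no binding was measured.

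Of the 8 genes that passed the filter, 0 were higher and 2 were lower in *Gpr174*-/Y muscles, *Ikzf2* and *Icos*, beside 27.0% and 27.6% of all genes tested, and 6 did not pass the test. After adjustment DESeq2 and limma voom also called 0 of the 8 higher. At an unadjusted p under 0.05 edgeR had 3 of the 8, *Cd8a* being added as higher, limma voom 4 and DESeq2 1. *Ikzf2* alone also passed an absolute log2 fold change of 1. The median log2 fold change of the 8 was 0.06, beside 0.00 over all genes, a value that TMM scaling by its design keeps near 0. Under total counts these medians were 0.33 and 0.28, and under scaling to pan-leukocyte markers -0.70 and -0.81. The signs of the 8 estimates depended on how libraries were scaled: 4 were positive and 4 negative with TMM, 6 positive and 2 negative under total counts, and 0 positive and 8 negative under scaling to pan-leukocyte markers. The groups did not overlap for 3 of the 8 (*Cd8a*, *Icos* and *Ikzf2*), beside 65.6% of all genes tested. The filter removed *Foxp3* and *Ctla4*, whose values come from the same fit without it. In whole muscle, fewer T cells and less RNA per T cell cannot be told apart.

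**Figure D1:**
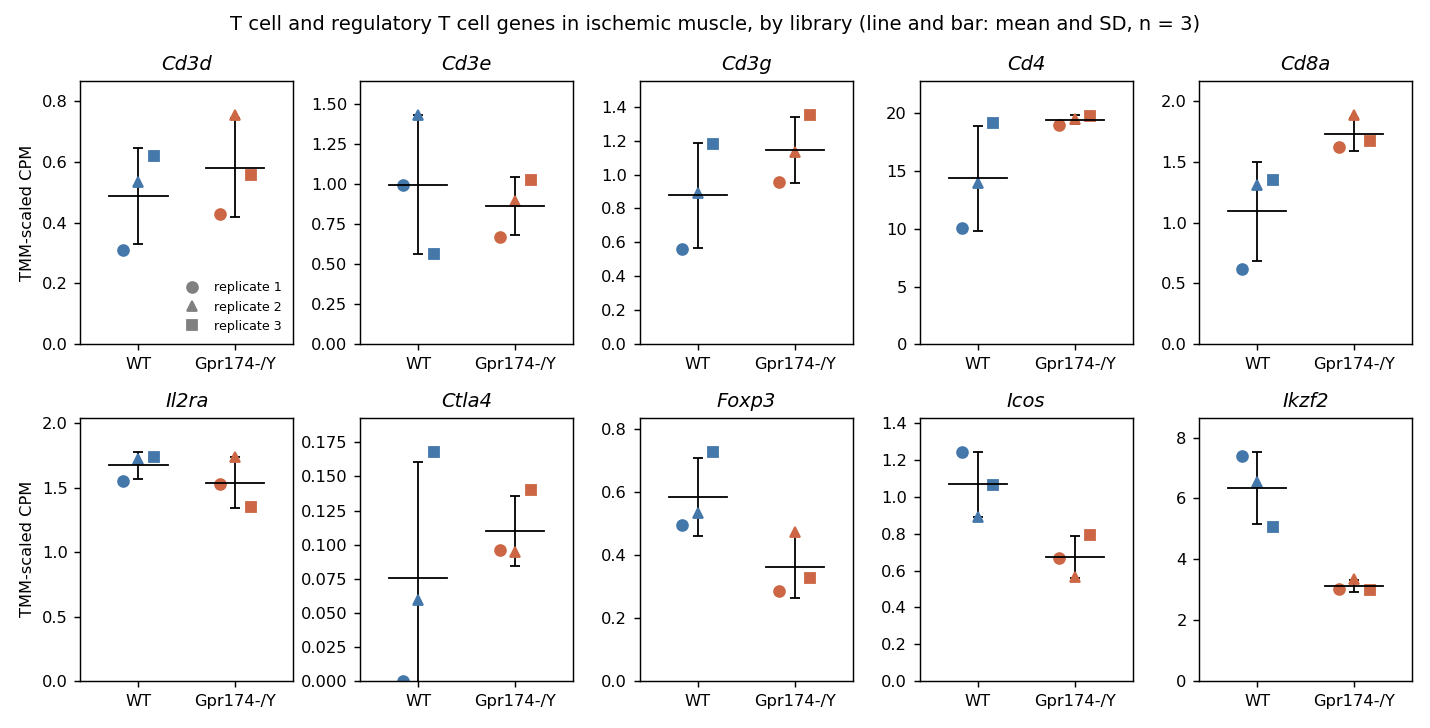
Level of each gene in TMM-scaled CPM (vertical axis, from 0 in every panel) in the 3 WT and 3 Gpr174-/Y libraries; symbols are replicates, the line is the mean and the bar the SD. Ikzf2 and Icos lie lower in every Gpr174-/Y library, the CD3 chains overlap between groups, and WT replicate 3 reaches the Gpr174-/Y level of Cd4.

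Per transcript length, the genes differed widely in level. In TPM, which divides counts by transcript length and was summed here by gene, *Cd4* was highest, with a mean of 11.3 TPM over the 6 libraries and a range of 5.48 to 15.1. *Cd3g* followed at 2.10 TPM, *Cd3e* at 1.29, *Ikzf2* at 0.960, *Cd8a* at 0.942, *Cd3d* at 0.877 and *Il2ra* at 0.725. From *Cd3g* to *Il2ra* the range of each gene overlapped that of the next in this order, so neighbours are not separated, although *Cd3g*, with 0.94 to 3.21 TPM, lay above the range of *Il2ra*, with 0.58 to 0.89 TPM. Below them stood *Icos* at 0.477 TPM and, apart from it, *Foxp3* at 0.248 and *Ctla4* at 0.108 TPM, whose ranges overlapped each other. *Cd4* thus stood above each CD3 chain in every library, and the *Cd4* level lay at the 54.5th percentile of all listed genes while *Foxp3* lay at the 17.2nd.

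The CD3 chains carry the signal of the antigen receptor into the cell. *Cd3e*, the epsilon chain, had 16, 24 and 10 counts in WT libraries against 14, 19 and 22 in *Gpr174*-/Y libraries, or 0.996, 1.43 and 0.562 CPM against 0.669, 0.895 and 1.02. The *Gpr174*-/Y values all fell within the WT range. The log2 fold change was -0.19 (SE 0.35, 95% interval -1.03 to 0.64, adjusted p = 0.664). *Cd3g*, the gamma chain, had 9, 15 and 21 counts in WT libraries against 20, 24 and 29 in *Gpr174*-/Y libraries, with WT replicate 3 above the lowest *Gpr174*-/Y library after scaling (log2 fold change 0.37, SE 0.29, 95% interval -0.31 to 1.05, adjusted p = 0.308). *Cd3d*, the delta chain, had 5, 9 and 11 counts in WT libraries against 9, 16 and 12 in *Gpr174*-/Y libraries (log2 fold change 0.24, SE 0.34, 95% interval -0.58 to 1.05, adjusted p = 0.596). The 3 chains, products of which assemble into the same complex, thus had estimates on both sides of 0 with TMM scaling, while all 3 were positive under total counts and negative under pan-leukocyte scaling, and none passed the test with TMM. Added together they gave 30, 48 and 42 counts in WT libraries against 43, 59 and 63 in *Gpr174*-/Y libraries. Scaled, the sum ranged from 1.87 to 2.86 CPM in WT and from 2.05 to 2.93 CPM in *Gpr174*-/Y muscles, which overlap. These intervals reach past a 2-fold increase for *Cd3d* and *Cd3g* and past a 2-fold decrease for *Cd3e*, so a change of that size could not be told from no change at this depth.

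*Cd4*, the coreceptor of helper T cells and Tregs, had 162, 234 and 341 counts in WT libraries against 398, 415 and 425 in *Gpr174*-/Y libraries. In CPM these were 10.1, 13.9 and 19.2 against 19.02, 19.5 and 19.8. The *Gpr174*-/Y libraries lay close together at 19.4 ± 0.385 CPM (SD, n = 3), WT at 14.4 ± 4.56 CPM, and WT replicate 3 stood at the *Gpr174*-/Y level. The log2 fold change was 0.43 (SE 0.20, 95% interval -0.05 to 0.91, adjusted p = 0.113). Without WT replicate 3 it was 0.70 with an adjusted p of 0.00132, and without WT replicate 1 it was 0.24 with an adjusted p of 0.164, so that 1 WT library decides whether *Cd4* passes the test. *Cd8a*, the coreceptor of cytotoxic T cells, had 10, 22 and 24 counts in WT libraries against 34, 40 and 36 in *Gpr174*-/Y libraries, or 0.622, 1.31 and 1.35 CPM against 1.62, 1.88 and 1.68. All *Gpr174*-/Y libraries lay above all WT libraries, but the difference did not pass the test over all genes (log2 fold change 0.65, SE 0.27, 95% interval 0.01 to 1.28, adjusted p = 0.0778). Here too leaving out WT replicate 3 gave a call (0.83, adjusted p = 0.0358), while without WT replicate 1 the value was 0.38 (adjusted p = 0.184). *Cd8b1*, which encodes the other chain of the CD8 heterodimer, had 1.28 ± 0.621 CPM in WT and 1.32 ± 0.315 in *Gpr174*-/Y muscles (SD, n = 3), with a log2 fold change of 0.02 (adjusted p = 0.962) that turned to -0.28 without WT replicate 1 and to -0.69 under pan-leukocyte scaling.

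Among the Treg genes, *Ikzf2* differed most. It had 119, 110 and 90 counts in WT libraries against 63, 71 and 64 in *Gpr174*-/Y libraries. Scaled, it stood at 7.41, 6.55 and 5.06 CPM in WT libraries against 3.01, 3.34 and 2.98 CPM in *Gpr174*-/Y libraries. Every *Gpr174*-/Y library lay below every WT library, with a mean of 3.11 ± 0.203 CPM against 6.34 ± 1.19 (SD, n = 3), 2.03-fold lower (log2 fold change -1.02, SE 0.16, 95% interval -1.40 to -0.64, adjusted p = 0.00262). Among the WT libraries it was highest in replicate 1, which had the lowest *Ptprc*, and lowest in replicate 3, which had the highest. The gene is also known from cells outside the T lineage, such as blood stem cells and hair cells of the inner ear, and the cells its reads came from were not measured.

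*Icos*, the costimulatory receptor kept on activated T cells and many Tregs, had 20, 15 and 19 counts in WT libraries against 14, 12 and 17 in *Gpr174*-/Y libraries. Unscaled, the groups overlap, and in TMM-scaled CPM they do not, with 1.24, 0.893 and 1.07 in WT libraries against 0.669, 0.565 and 0.791 in *Gpr174*-/Y libraries. The fall by 0.65 on the log2 scale, or 1.57-fold (SE 0.22, 95% interval -1.19 to -0.12, adjusted p = 0.0465), was close to the threshold. It was lost without the filter on low counts (adjusted p = 0.059), with DESeq2 (0.206) and without any of 5 of the 6 libraries (0.0643 to 0.171). *Icosl*, the ligand of ICOS, did not pass the test (log2 fold change -0.04, adjusted p = 0.891) and stood at 0.22 under total counts and at -0.79 under pan-leukocyte scaling, where it was called lower (adjusted p = 0.0065).

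*Foxp3* itself was near the limit of detection. Its counts were 8, 9 and 13 in WT libraries against 6, 10 and 7 in *Gpr174*-/Y libraries, or 0.496, 0.534 and 0.727 CPM against 0.287, 0.473 and 0.326. After scaling, every *Gpr174*-/Y library lay below every WT library, although *Gpr174*-/Y replicate 2 had more counts than 2 of the WT libraries. The 2-sided exact permutation test gave p = 0.1, the smallest that 3 libraries against 3 allow. In the fit without the filter the log2 fold change was -0.69 (SE 0.32, 95% interval -1.43 to 0.05, adjusted p = 0.138), not past the threshold. In that fit, over 18053 genes, 22.1% of genes were higher and 21.7% lower, and among the 10 T cell and Treg genes *Ikzf2* alone was called, lower. *Ctla4*, the inhibitory receptor of Tregs and activated T cells, had 0, 1 and 3 counts in WT libraries against 2, 2 and 3 in *Gpr174*-/Y libraries. Both groups were at or under the floor of 3 counts, so no fold is given.

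*Il2ra*, which encodes CD25, had 25, 29 and 31 counts in WT libraries against 32, 37 and 29 in *Gpr174*-/Y libraries, or 1.56, 1.73 and 1.74 CPM against 1.53, 1.74 and 1.35. The groups overlapped throughout. Its log2 fold change with TMM was -0.12 (SE 0.16, 95% interval -0.50 to 0.25, adjusted p = 0.631). The unadjusted p-value exceeds the one this SE gives, so the interval, which leaves out a 2-fold change in either direction, may be too narrow. Under pan-leukocyte scaling the edgeR value was -0.90 (95% interval -1.53 to -0.27, adjusted p = 0.00911), an interval that takes in a 2-fold decrease. With TMM *Il2ra* and *Ikzf2* thus differed in outcome, and the difference between their changes was not tested.

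The estimated counts of several of these genes were divided among RefSeq transcripts in ways that shifted from library to library. *Cd8a* counts sat wholly on 1 of its 2 listed transcripts in WT replicates 1 and 2 and wholly on the other in the remaining 4 libraries. *Ikzf2* counts were spread over 9 listed transcripts, 0 of which had counts in all 6 libraries, and 3 different transcripts led in different libraries. *Icos* had 3 listed transcripts, 1 of them counted in every library. The values given here are sums over transcripts, which do not depend on that division, while the TPM do, because each transcript carries its own length. For *Foxp3*, 1 of the 3 transcripts of the RefSeq table was listed, and for *Ctla4* 1 of 2.

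**Figure D2:**
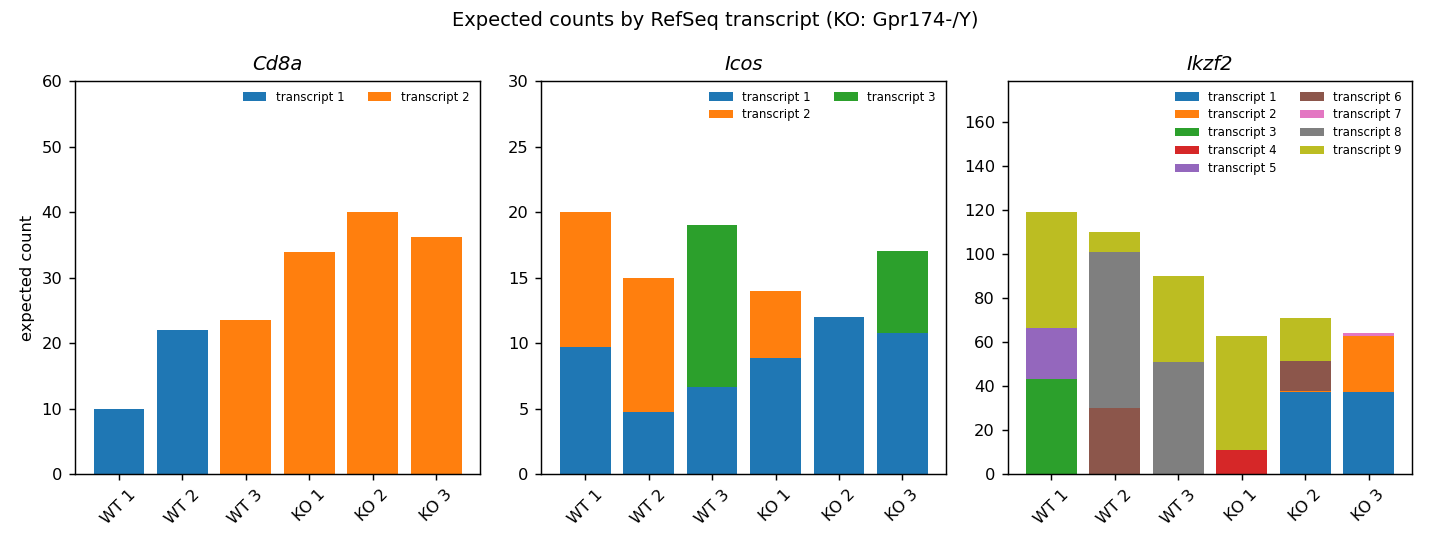
Expected counts (vertical axis, from 0) of Cd8a, Icos and Ikzf2 in each of the 6 libraries, divided by RefSeq transcript (colours, numbered within each gene). The leading transcript changes between libraries of the same genotype, while the height of the bar, the gene's sum, is the value reported.

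Leukocyte markers differed between the genotypes, so the T cell genes were also set against them. Of 6 pan-leukocyte markers, 5 were higher in *Gpr174*-/Y muscles, and their summed level ranged from 308 to 522 CPM in WT and from 674 to 755 CPM in *Gpr174*-/Y muscles. Of 7 macrophage markers, 6 were higher, among them *Cd68*, *Csf1r* and *Lyz2* (1082 to 1562 CPM in WT, 2557 to 2579 CPM in *Gpr174*-/Y). All 8 mature fibre markers were lower, with sums of 88323 to 131087 CPM in WT and 40575 to 44540 CPM in *Gpr174*-/Y muscles. Their part in the results was not tested.

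Set against *Ptprc*, each of the 9 genes with over 3 counts per library had a lower mean ratio in *Gpr174*-/Y muscles, with no overlap between groups for 6 of them. The same was so of most genes in the libraries: over all genes tested but *Ptprc*, 92.6% had a lower mean ratio in *Gpr174*-/Y muscles, and for 76.5% every *Gpr174*-/Y library lay below every WT library. The summed CD3 chains made 4.78, 5.83 and 3.69 counts per 100 *Ptprc* counts in WT libraries against 2.59, 3.39 and 3.06 in *Gpr174*-/Y libraries. The groups did not overlap, and the *Gpr174*-/Y mean was 0.632 times the WT mean. *Foxp3* gave 1.27, 1.09 and 1.14 counts per 100 *Ptprc* counts in WT libraries against 0.361, 0.575 and 0.340 in *Gpr174*-/Y libraries, a ratio of means of 0.364. *Icos* had a ratio of means of 0.353, *Ikzf2* of 0.273, *Il2ra* of 0.534, *Cd4* of 0.813 and *Cd3g* of 0.783, and none of these overlapped between groups. *Cd8a* stood at 2.12 ± 0.541 in WT and 2.03 ± 0.276 per 100 *Ptprc* counts in *Gpr174*-/Y muscles (SD, n = 3), with overlap, and *Cd3d* and *Cd3e* overlapped as well. Each ratio without overlap had p = 0.1 in the 2-sided exact permutation test, the smallest possible here, so none can pass 0.05. The denominator, *Ptprc*, rose by 0.76 on the log2 scale (SE 0.17, adjusted p = 0.0101), and is carried by all leukocytes, macrophages included.

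**Figure D3:**
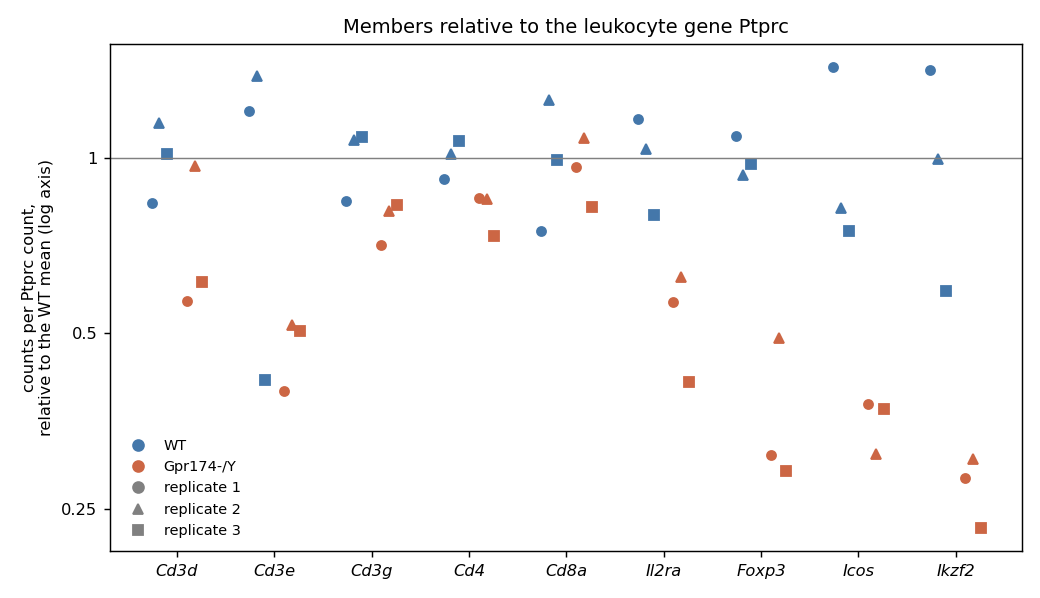
Counts of 9 genes per Ptprc count, divided by the WT mean (vertical axis, logarithmic, base 2), with a point for each library; Ctla4 is left out for its low counts. All 3 Gpr174-/Y libraries lie below all WT libraries for Cd3g, Cd4, Il2ra, Foxp3, Icos and Ikzf2, and the groups overlap for Cd3d, Cd3e and Cd8a.

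Set against the summed CD3 chains, the 4 Treg genes with over 3 counts in every library all had lower mean ratios in *Gpr174*-/Y muscles, at 0.550 times the WT mean for *Foxp3*, 0.558 for *Icos*, 0.439 for *Ikzf2* and 0.842 for *Il2ra*. Over all genes tested but the chains, 62.6% had a lower mean ratio, and for 16.5% every *Gpr174*-/Y library lay below every WT library. *Foxp3* made 26.7, 18.8 and 31.0 counts per 100 summed CD3 counts in WT libraries against 14.0, 16.9 and 11.1 in *Gpr174*-/Y libraries. *Ikzf2* made 397, 229 and 214 in WT libraries against 147, 120 and 102 in *Gpr174*-/Y libraries. Neither overlapped between groups, and both had p = 0.1 in the 2-sided exact permutation test, the smallest possible here. *Icos* (47.7 ± 17.8 against 26.6 ± 6.12), *Il2ra* (72.5 ± 11.5 against 61.1 ± 14.3), *Cd8a* (45.4 ± 11.9 against 68.0 ± 10.96) and *Cd4* (613 ± 174 against 768 ± 137, all SD with n = 3) overlapped between groups. Differences between these genes' ratios were not tested. *Cd4* had several counts for every CD3 count in each library, a ratio of counts that is not corrected for transcript length. In TPM, which is corrected for it, *Cd4* also stood above each chain. Its mean over the 6 libraries was 11.3 TPM, beside 2.10 for *Cd3g*, 1.29 for *Cd3e* and 0.877 for *Cd3d*. The cells that the *Cd4* reads came from were not measured.

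The scaling of the libraries moved several calls. When libraries were scaled by their total counts alone, the median log2 fold change of all genes shifted by 0.27, 50.7% of genes were called higher and 14.0% lower, *Cd4* (0.69, adjusted p = 0.034) and *Cd8a* (0.91, adjusted p = 0.0264) were called higher, *Icos* was no longer called, and *Cd3e* and *Il2ra* turned positive without passing the test. With scaling to the geometric mean of the 6 pan-leukocyte markers, the median of all genes shifted by -0.82, 1.44% of genes were called higher and 70.4% lower. There *Cd3e* (-1.01), *Il2ra* (-0.90), *Icos* (-1.45) and *Ikzf2* (-1.88) were called lower, 4 of 8, and *Foxp3* (-1.44, adjusted p = 0.0057) was as well in the fit without the filter. *Cd3d*, *Cd3g*, *Cd4* and *Cd8a* turned negative there and did not pass the test. *Ikzf2* was thus the gene called lower under all 3 scalings.

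**Figure D4:**
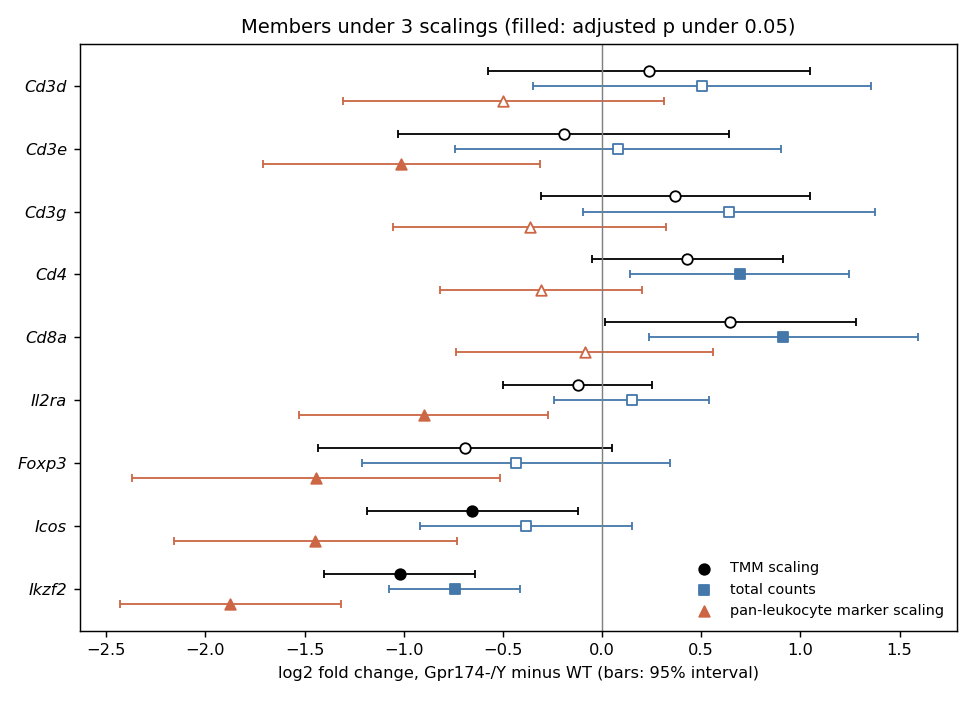
Log2 fold change, Gpr174-/Y minus WT, with 95% intervals (horizontal axis) for the 9 genes with over 3 counts in every library, under TMM scaling, total counts and scaling to 6 pan-leukocyte markers; filled symbols passed an adjusted p of 0.05. Ikzf2 is filled on the low side under all 3, and the 4 genes Cd3d, Cd3g, Cd4 and Cd8a change side between TMM and pan-leukocyte scaling.

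Of 78 genes in 6 further T cell lists, 74 were listed and 59 passed the filter. Of these 59, 12 (20.3%) were higher and 10 (16.9%) lower in *Gpr174*-/Y muscles, beside 27.0% and 27.6% of all genes tested, and their median log2 fold change was -0.07. Among 17 genes of T cell receptor signalling, 15 were tested, 2 rose and 2 fell, with a median of -0.10. *Cd247*, which encodes the zeta chain of the receptor complex, fell from 4.29 ± 0.308 to 2.16 ± 0.426 CPM (SD, n = 3; log2 fold change -0.98, adjusted p = 0.003), and *Cd2*, an adhesion receptor, by 0.75 on the log2 scale (adjusted p = 0.00523). Both are made by NK cells as well as T cells. *Lcp2*, the adaptor SLP-76, which myeloid cells also express, rose from 22.9 ± 5.03 to 32.8 ± 2.14 CPM (0.51, adjusted p = 0.0244), a call lost without WT replicate 2 or any 1 of the *Gpr174*-/Y libraries (0.0574 to 0.0836). *Cd5*, an inhibitory coreceptor, was the other gene that rose (0.98, adjusted p = 0.0292), a call lost with DESeq2 (0.0911) and without WT replicate 1 or 2 or *Gpr174*-/Y replicate 2 or 3 (0.0762 to 0.0838). *Lck* and *Zap70*, the proximal kinases, did not pass the test (-0.07 with adjusted p = 0.691, and -0.35 with adjusted p = 0.268), but *Lck* turned to 0.20 under total counts, and *Zap70* was called lower without *Gpr174*-/Y replicate 3 (-0.69, adjusted p = 0.0166).

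Of 22 genes associated with Tregs beyond the members, 17 were tested, 5 rose and 2 fell, with a median of 0.15. *Entpd1*, the ectonucleotidase CD39, rose from 52.3 ± 2.86 to 71.0 ± 2.17 CPM (SD, n = 3; log2 fold change 0.44, adjusted p = 0.0015), and *Prdm1*, the transcription factor BLIMP-1, from 6.47 ± 1.14 to 9.93 ± 1.14 CPM (0.62, adjusted p = 0.0125). *Nt5e*, *Il1rl1* and *Batf* were the other genes that rose. Most of these are also expressed by myeloid, stromal or endothelial cells. *Tigit* fell by 0.43 on the log2 scale (SE 0.07, adjusted p = 0.00269), and *Itgae* was the other that fell. Under total counts *Tigit* stood at -0.15 and was not called (adjusted p = 0.119), and the 8 Treg-associated genes called there were all higher. At 103 to 138 CPM in group means, *Tigit* stood far above every CD3 chain, and the cells its reads came from were not measured. Whether the counting used strand is not given in the sources used here, so reads of an antisense or overlapping transcript could be among them. *Ikzf4*, which encodes the Helios relative Eos, did not pass the test (0.31, adjusted p = 0.341) and turned to -0.48 under pan-leukocyte scaling. Under scaling to the pan-leukocyte markers *Entpd1*, *Prdm1* and *Lcp2* turned negative without passing the test, and 10 of the 15 signalling genes and 9 of the 17 Treg-associated genes were called lower.

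Of 13 cytotoxic and type 1 genes, 10 were tested and 3 of them (30%) fell, beside 27.6% of all genes tested, with a median of -0.53. *Tbx21*, the type 1 factor T-bet, fell by 1.196 (adjusted p = 0.00299), *Eomes* by 1.01 (adjusted p = 0.00357) and *Prf1*, the pore former perforin, by 0.72 (adjusted p = 0.0309). The call of *Prf1* was lost under total counts (-0.45, adjusted p = 0.149), with DESeq2 (0.062) and without WT replicate 2 or 3 or *Gpr174*-/Y replicate 1 or 2 (0.0635 to 0.0966). All 3 are expressed in NK cells too. Of 6 NK cell markers, 4 fell, and their summed level was 15.3 to 17.2 CPM in WT and 7.36 to 10.9 CPM in *Gpr174*-/Y muscles. *Klrk1* fell by 1.23 (adjusted p = 0.00101), *Klra8* by 1.07 (adjusted p = 0.00516) and *Klrd1* by 0.54 (adjusted p = 0.0242). The call of *Klrd1* was lost under total counts (-0.28, adjusted p = 0.24), with DESeq2 (0.144) and without WT replicate 3 or any 1 of the *Gpr174*-/Y libraries (0.0543 to 0.126). The part of NK cells in the falls of *Tbx21*, *Eomes*, *Prf1*, *Cd247* and *Cd2* was not tested.

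Of 6 naive and memory genes, all tested, 2 rose and 1 fell. *Il7r*, the IL-7 receptor chain, rose most, from 6.34 ± 1.601 to 20.9 ± 1.89 CPM (SD, n = 3; log2 fold change 1.71, adjusted p = 0.00087). *Lef1* rose by 1.24 (adjusted p = 0.0212), a call lost with DESeq2 (0.0624), with a replicate block (0.055), under pan-leukocyte scaling (0.46, adjusted p = 0.31) and without WT replicate 2 or *Gpr174*-/Y replicate 2 or 3 (0.0621 to 0.085). *Satb1* fell by 1.05 (adjusted p = 0.00135). All 3 are also expressed outside T cells. Of 12 activation and checkpoint genes, 10 were tested, 3 rose and 1 fell. *Tnfsf11*, the cytokine RANKL, rose by 1.996 (adjusted p = 0.00853) from 2, 9 and 18 counts in WT libraries against 53, 51 and 42 in *Gpr174*-/Y libraries. The size of this rise moved with the WT libraries, to 2.76 without WT replicate 3 and 1.56 without WT replicate 1. *Havcr2*, the receptor TIM-3, which macrophages also carry, rose by 1.28 (adjusted p = 0.00529), and *Il2rb*, the IL-2 receptor beta chain shared by NK cells and T cells, fell by 0.67 (adjusted p = 0.0418). The call of *Il2rb* was lost under total counts (-0.40, adjusted p = 0.204) and without WT replicate 2 or 3 or *Gpr174*-/Y replicate 1 or 2 (0.0955 to 0.118). *Il2*, *Il4* and *Il5*, helper cytokines, had at most 1, 1 and 4 counts in a library.

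Within the Ikaros family, the genes beside *Ikzf2* had estimates on both sides of 0. *Ikzf1*, the pan-lymphoid founder of the family, rose from 13.8 ± 5.39 to 22.6 ± 1.45 CPM (SD, n = 3; log2 fold change 0.71, adjusted p = 0.0441), a call lost without the filter (0.0509) and without each library but WT replicate 3 (0.0541 to 0.134), and it stood at -0.02 under scaling to the pan-leukocyte markers. *Ikzf3*, which encodes Aiolos, stood at -0.76 and did not pass the test (adjusted p = 0.0725), though without *Gpr174*-/Y replicate 3 it was called lower (-1.16, adjusted p = 0.0148). *Ikzf5* did not pass it either (-0.08, adjusted p = 0.478), and turned to 0.20 under total counts.

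**Figure D5:**
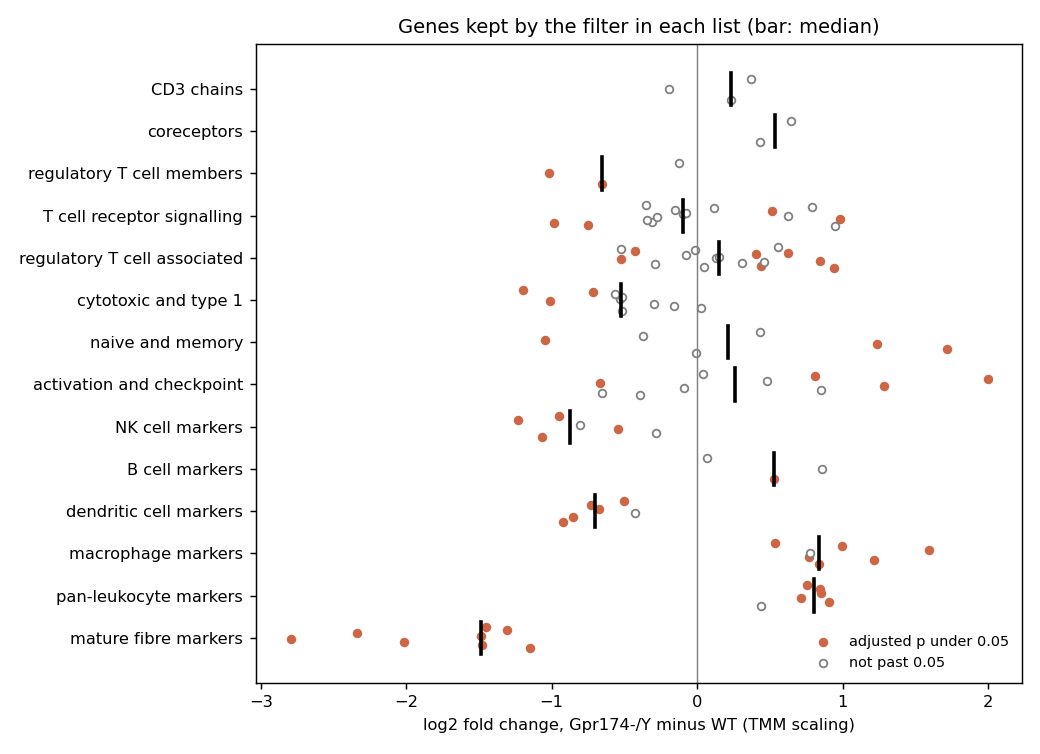
Log2 fold change, Gpr174-/Y minus WT, under TMM scaling (horizontal axis) of every gene that passed the filter in 14 lists; points are genes, filled where the adjusted p was under 0.05, and the bar is the list's median. The T cell lists lie on both sides of 0, the NK cell, dendritic cell and fibre markers lie low, and the macrophage and pan-leukocyte markers lie high.

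The profile of the summed CD3 chains over the 6 libraries was most like that of *Proca1*, *Il12a*, *4930579G24Rik*, *Lrch2* and *Barx2* among 13569 genes with a mean of at least 20 counts. The root mean square difference of the centred log2 profiles was 0.09 for *Proca1* and 0.12 for *Barx2*, against a median of 0.31 over all genes compared. None of the 5 is a member of the T cell lists, and none passed the test between genotypes.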

How the data were processed

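RNA-seq libraries of ischemic gastrocnemius from 3 WT and 3 *Gpr174*-/Y mice were grouped by genotype as labelled. The authors deposited expected counts, FPKM (not used in the tests) and TPM per RefSeq transcript for each library, together with group means that were not used. The submitters' processing notes name HISAT2 2.0.4, Bowtie2 2.2.5, RSEM 1.2.12 and GRCm39, without roles. The use of strand is not given in the sources used here. Only transcripts with a count in some library are listed (58843).

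Expected counts were summed by Entrez gene, rounded, and matched to RefSeq symbols (52 of 18089 genes unmatched). Of the 10 genes, 5 had whole counts (within 0.005) in all libraries. edgeR 4.0.16 (TMM, filterByExpr, robust quasi-likelihood F-test, R 4.3.3) compared the genotypes over all genes with Benjamini-Hochberg adjustment at 0.05; an absolute log2 fold change of 1 was a further threshold. SEs are |log2 fold change| divided by the square root of F. Where libraries differ less than counting error predicts, edgeR keeps the p-value at least as large as counting error gives. SEs and intervals do not include this and can be too narrow at low counts, as for *Il2ra*, *Foxp3* and *Icos*. *Foxp3*, *Ctla4* and *Gpr174*, removed by the filter, take values from the fit without it. Exact permutation tests used scipy 1.17.1. Alternatives were DESeq2 1.42.0, limma 3.58.1 voom, other scalings and filters, a replicate block and left-out libraries. Fits were tested on simulated data in which far fewer genes changed than were called here, which does not test the scaling. The members and 20 lists were chosen with earlier results of these data known. Named beside the members are *Gpr174*, *Ptprc*, up to 3 called genes of each list by highest mean CPM (where fewer than 2 were called, the 2 highest), and the 5 genes most like the summed CD3 chains (log2(CPM + 0.1)). Other genes named were chosen after their values were seen. A result of 1 further listed gene is not reported here. p-values measure the spread between these libraries, or in edgeR's test counting error where that is larger.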

Additional observations from a re-analysis of the deposited data

How the results depend on the processing

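Of the 10 genes, 2 were called with the filter and 1 without it, all lower. Over all genes tested, 27.0% were called higher and 27.6% lower with the filter, and 22.1% and 21.7% without it. Under scaling to the pan-leukocyte markers 4 were called with the filter and 5 without it, all lower. With the filter 70.4% of all genes were called lower there and 1.44% higher. Under total counts 3 were called in the fit without the filter, 2 higher and 1 lower. In the fit with the filter 50.7% of all genes were higher there and 14.0% lower. DESeq2 called 1 with the filter, beside 6812 of all genes, and removing the filter left 1. Leaving out each library in turn gave 1 to 3 called genes with the filter and 1 to 3 without it. The highest number came without WT replicate 3, with 2 higher and 1 lower in both fits. Shares of all genes are not given for the fits with a library left out. For T cell receptor signalling the 4 calls became 10 under pan-leukocyte scaling and 2 to 6 with each library left out, 2 without WT replicate 2 or *Gpr174*-/Y replicate 2. For Treg-associated genes the 7 calls became 4 to 7 with each library left out, 4 without the same libraries. With replicates 1 and 3 of each group alone, edgeR called 0 of any of these lists and 0 genes in all. There 1 of the 10 genes (1 without the filter), 3 signalling genes and 4 Treg-associated genes had an unadjusted p under 0.05. Over all genes 5026 had such a p, where 14395 passed the filter with all 6 libraries, so these numbers do not set the lists apart. With a replicate block, 1 of the 10 genes was called, *Icos* being lost (adjusted p = 0.0618). Deviations of same-numbered libraries correlated at 0.00, -0.01 and -0.02, and the block moved the calls over all genes from 7863 to 6809. Whether same-numbered libraries were paired or prepared together is not given, and these correlations cannot decide it. Among 3675 genes with a mean of at least 1000 counts, replicate 2 often lay between replicates 1 and 3. This held for 86.1% of them in WT and 77.1% in *Gpr174*-/Y libraries. A random order gives 33.3% for a single gene, but genes of a library vary together, so these shares cannot be judged against it. The cause of this order was not tested.

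Directions turned as follows, and none of the turned values passed an adjusted p of 0.05 except that of *Cd79b*. Under pan-leukocyte scaling the log2 fold changes became -0.50 for *Cd3d*, -0.37 for *Cd3g*, -0.31 for *Cd4*, -0.088 for *Cd8a*, -0.0075 for *Ptprc*, -0.25 for *Lcp2*, -0.37 for *Entpd1*, -0.23 for *Prdm1*, -0.18 for *Pvr*, -0.25 for *Il33*, -0.23 for *Cd80*, -0.015 for *Ikzf1*, -0.25 for *Cd22*, -0.72 for *Cd79b*, -0.0086 for *Csf1r*, -0.69 for *Cd8b1*, -0.48 for *Ikzf4* and -0.13 for *Csf3r*. *Ptprc* is itself among the markers that set the pan-leukocyte scaling, so its value there is largely fixed by it. Under total counts values became 0.081 for *Cd3e*, 0.15 for *Il2ra*, 0.24 for *Cxcl9*, 0.22 for *Icosl*, 0.20 for *Lck* and 0.20 for *Ikzf5*. With each library left out *Cd8b1* ranged from -0.28 to 0.40, *Icosl* from -0.23 to 0.22 and *Lck* from -0.17 to 0.0098, and with replicates 1 and 3 alone *Cd8b1* was -0.0080 and *Icosl* 0.0096. With each library left out *Cd3e* ranged from -0.48 to 0.17, positive without WT replicate 2, and it was 0.13 with replicates 1 and 3 alone. *Cxcl9* ranged from -0.33 to 0.47 with each library left out, and it was 0.14 with limma voom, 0.11 with the replicate block, and 0.47, 0.05 and 0.00053 without WT replicate 3, *Gpr174*-/Y replicate 1 and *Gpr174*-/Y replicate 2. *Ikzf2* stayed lower in all 15 alternatives and past the threshold in 14, and *Icos* stayed lower in all 15 and past it in 5. *Foxp3* stayed lower in all 13 of its alternatives and past the threshold in 1, pan-leukocyte scaling. The causes were not tested. Counts of 5 to 29 for the CD3 chains and 6 to 13 for *Foxp3* limit what these libraries can show.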

Other observations

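Ligands that T cells recognize were measured in the same muscles. Of 12 such genes 8 were tested and 4 were higher in *Gpr174*-/Y muscles, with a median log2 fold change of 0.49. *Pvr*, a ligand of TIGIT, rose from 37.2 ± 3.67 to 57.0 ± 0.446 CPM (SD, n = 3; log2 fold change 0.62, edgeR adjusted p = 0.00128), *Il33*, an alarmin to which muscle Tregs respond, by 0.53 (adjusted p = 0.0101), and *Cd80*, a ligand of CD28 and CTLA4, by 0.54 (adjusted p = 0.0165), a call lost with DESeq2 (0.0782) and without WT replicate 2 or *Gpr174*-/Y replicate 1 or 2 (0.0525 to 0.0643). Of 8 chemokines that attract T cells 7 were listed, 5 were tested and 1 was called. This was *Cxcl16*, with 35.9 ± 12.5 CPM in WT and 80.5 ± 2.47 CPM in *Gpr174*-/Y muscles (log2 fold change 1.16, adjusted p = 0.00515). *Cxcl9* had 42.4 ± 22.8 CPM in WT and 42.2 ± 3.68 CPM in *Gpr174*-/Y muscles (adjusted p = 0.982).

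Among lists of other cells, 5 of 6 dendritic cell markers were lower, with sums of 27.9 to 30.2 CPM in WT and 17.7 to 21.1 CPM in *Gpr174*-/Y muscles. All 5 endothelial markers were lower as well (846 to 1018 CPM against 517 to 595 CPM). Of 8 B cell markers 3 were tested, and *Cd22* was higher (log2 fold change 0.53, adjusted p = 0.0233) while *Cd79b* did not pass the test (0.07, adjusted p = 0.807). Of 6 neutrophil markers 2 were tested, of which *Csf3r* was higher (0.63, adjusted p = 0.0129) and *Cxcr2* lower (-0.57, adjusted p = 0.0193). The call of *Cd22* was lost without WT replicate 1 or 2 or *Gpr174*-/Y replicate 2 or 3 (adjusted p = 0.0509 to 0.0869), that of *Csf3r* without WT replicate 2 (0.052), and that of *Cxcr2* under total counts (-0.29, adjusted p = 0.109) and without WT replicate 1 or 2 or *Gpr174*-/Y replicate 1 or 2 (0.0508 to 0.0832).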
